A study of Mus musculus with 12 samples.

Results

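The transcripts of the proteasome were followed in mouse hepatocyte preparations taken after removal of most of the liver. Members are all genes whose symbol begins with Psm, then a letter from a to g and a digit. The rule found 49 of the 18227 genes in the deposited table. By known role they are 8 alpha ring and 4 structural beta ring subunits of the 20S core, 3 standard and 3 immunoproteasome catalytic subunits, 6 ATPases and 11 other subunits of the 19S cap, 3 assembly chaperones of the cap and 4 of the core, 3 genes of the PA28 alpha-beta activator group, and 3 genes that code for other activators or an inhibitor. The remaining member, Psmc3ip, is a factor of homologous recombination that shares only the name. In the libraries labelled anti-Gr1, the standard catalytic subunits were lower and the immunoproteasome subunit Psmb8 was higher than in the isotype libraries at POD2. Whether these differences passed the test depended on few libraries and on how the libraries were scaled. The read ratios of Psmb8 to Psmb5 and of Psmb9 to Psmb6 were higher in every library labelled anti-Gr1 than in any isotype library.

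The proteasome degrades proteins that carry ubiquitin chains. Its barrel-shaped 20S core is built of alpha rings, which gate the entry, around beta rings, which hold the catalytic sites, and the 19S cap recognises, unfolds and feeds in the substrate. Interferon gamma induces an alternative set of catalytic subunits, Psmb8, Psmb9 and Psmb10, which replace Psmb5, Psmb6 and Psmb7 in newly assembled cores. The resulting immunoproteasome is abundant in cells of the immune system and yields peptides suited to presentation on class I molecules. Hepatocytes mainly carry the standard form, and gain the immunoproteasome in an inflamed liver.

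All groups came from 8-week-old male wild-type BALB/C mice. Each mouse received antibody into the peritoneum, either against Gr1 or, as control, a non-targeting isotype antibody, at 200 µg in 100 µl for each injection. The second dose came 2 days after the first, together with a 70% hepatectomy, which the isotype mice underwent too. Gr1 is a surface antigen of granulocytes and of some monocytes. Hepatocytes were obtained 1 or 2 days after surgery (POD1 or POD2) by collagenase perfusion, a 70 µm filter and a slow spin, without sorting, so other liver cells can remain. The 4 groups, isotype POD1, anti-Gr1 POD1, isotype POD2 and anti-Gr1 POD2, hold 3 poly A RNA libraries each. The labels do not say that these came from separate animals, so p-values measure no more than the spread among these libraries, which can be technical.

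Library totals lay between 13189392 and 15822043 counts. Replicates 1 and 2 of isotype POD2, and likewise replicates 1 and 2 of anti-Gr1 POD2, were nearly identical (chi-square per gene 1.62 and 5.27, where counting noise gives about 1) and each such pair was counted as 1 sample. Groups thus have n = 3 on the earlier day and n = 2 on the later. Across days, the third replicates of the 2 anti-Gr1 groups were nearly identical too (3.51), although their labels differ; they are called the cross-day pair. All other pairs of libraries lay at 58.3 or above. Ly6g, the gene of the antibody's main target, goes against the labels: its level in CPM (read counts relative to library size, after TMM scaling of the sizes) ran from 24.5 to 57.7 where the label says anti-Gr1 and from 0.239 to 2.02 where it says isotype. Directions below therefore rest on the labels alone. The summed level of 10 hepatocyte markers was 107000 to 112200 CPM in isotype POD2 and 2588 to 27710 CPM in the other groups, and none of these markers was at 0 throughout a group.

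Markers of other cells moved with the groups. The sum of 13 granulocyte markers was 676.4 to 843.8 CPM in isotype POD1, 54.6 to 134.8 CPM in isotype POD2, 5543 to 9695 CPM in anti-Gr1 POD1 and 3484 to 5055 CPM in anti-Gr1 POD2. The sum of 12 monocyte and macrophage markers was 1095 to 1646 CPM in isotype POD2 and 4456 to 9460 CPM in the other groups. Markers of T and NK cells (12 genes) summed to 9.87 to 80.5 CPM, of sinusoidal endothelium (7 genes) to 906 to 4991 CPM, with isotype POD2 lowest in each. B and plasma cell markers (9 genes) summed to 105.4 to 1417 CPM, with isotype POD1 highest. Pancreatic acinar markers (14 genes) ran from 88.6 to 361900 CPM and varied within groups. In such bulk samples, fewer cells of a type and less RNA per cell cannot be told apart, and the part of these cells in the proteasome results was not tested.

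All 49 members passed the filter on low counts, and they spanned a wide range of levels. Per kb of exon, averaged over the 4 groups, the highest were Psma6, an alpha ring subunit, at 114.3 CPM per kb, Psmb2 at 95.7 and Psmb4 at 86.1, both structural beta subunits. The lowest were Psma8, a testis form of an alpha subunit, at 0.69 CPM per kb, Psme2b, a paralog of Psme2, at 1.61, and Psmc3ip at 1.96. The order depends in part on the gene length used: per kb of the longest transcript Psmb6 came first. Summed over all members, the level was 4338 ± 133 CPM in isotype POD1 (SD, n = 3), 3950 ± 474.2 in anti-Gr1 POD1 (n = 3), 5022 ± 493.9 in isotype POD2 (n = 2) and 3507 ± 104.4 in anti-Gr1 POD2 (n = 2). These sums make up 0.512%, 0.419%, 0.365% and 0.346% of all reads, in the same order of groups. Isotype POD2 thus had the highest scaled sum but not the highest share, because its scaling factors were the lowest, 0.621 to 0.847 against 0.952 to 1.25 in the other groups.

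The genes of the 2 catalytic pairs on which the results turn are shown with the 250 bases before their starts (RefSeq, GRCm38.p6, on the strand of the gene, read 5′ to 3′). Capitals mark matches to motifs searched on both strands: a STAT site (TTCNNNGAA) in Psmb8, a CCAAT box, here as ATTGG on the reverse strand, in Psmb9, and an antioxidant response element core (TGACNNNGC), the kind of site that Nfe2l1 binds with small Maf proteins, in Psmb5 and Psmb6. The windows are chr17:34197945-34198194 (+) for Psmb8, chr17:34187331-34187580 (-) for Psmb9, chr14:54617996-54618245 (-) for Psmb5 and chr11:70525107-70525356 (+) for Psmb6.
Psmb8: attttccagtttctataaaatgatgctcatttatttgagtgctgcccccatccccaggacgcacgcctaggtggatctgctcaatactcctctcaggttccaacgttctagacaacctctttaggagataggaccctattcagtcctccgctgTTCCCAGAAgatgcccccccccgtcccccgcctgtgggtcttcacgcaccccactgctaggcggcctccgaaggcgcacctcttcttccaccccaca
Psmb9: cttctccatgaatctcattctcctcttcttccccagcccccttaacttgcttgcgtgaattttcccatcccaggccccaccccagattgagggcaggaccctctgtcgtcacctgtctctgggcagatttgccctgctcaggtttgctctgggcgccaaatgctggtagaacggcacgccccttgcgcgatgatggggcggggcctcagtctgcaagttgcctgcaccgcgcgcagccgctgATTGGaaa
Psmb5: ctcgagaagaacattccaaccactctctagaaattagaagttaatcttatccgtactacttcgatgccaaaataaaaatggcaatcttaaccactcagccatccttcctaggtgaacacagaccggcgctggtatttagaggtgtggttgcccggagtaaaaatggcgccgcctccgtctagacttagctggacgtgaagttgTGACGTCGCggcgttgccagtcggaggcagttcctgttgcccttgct
Psmb6: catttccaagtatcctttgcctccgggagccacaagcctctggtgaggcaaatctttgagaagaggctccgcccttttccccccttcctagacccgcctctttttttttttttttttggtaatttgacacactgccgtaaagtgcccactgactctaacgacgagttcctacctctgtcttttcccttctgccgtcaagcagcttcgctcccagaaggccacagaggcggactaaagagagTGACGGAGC
The match in Psmb8 lies 97 bases before the RefSeq start, that in Psmb9 8, that in Psmb5 47 and that in Psmb6 9. GENCODE places the starts of Psmb8 (34197721) and Psmb9 (34187764) further upstream. By that annotation the windows of both lie inside the genes, and that of Psmb5 overlaps its gene in part. Psmb8 and Psmb9 lie in the class II region of chromosome 17, where Psmb9 and Tap1, a subunit of the peptide transporter of the endoplasmic reticulum, point away from each other with starts 226 bases apart.

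The standard catalytic subunits were all lower in anti-Gr1 than in isotype at POD2. Where antibodies are compared below, fell and rose mean lower and higher in anti-Gr1 than in isotype of the same day. Psmb6 (ENSMUSG00000018286, GRCm38 chr11:70525367-70527858), which carries the caspase-like site, stood at 198.1, 204.3 and 266.5 CPM in isotype POD2 and at 123.7, 128.9 and 115.2 CPM in anti-Gr1 POD2. The groups did not overlap, and replicate 3 of isotype POD2 was the highest of all 12 libraries. The group means ± SD were 233.8 ± 46.2 and 120.7 ± 7.84 CPM with n = 2 each, a log2 fold change (± SE) of -0.95 ± 0.23 at an adjusted p of 0.0196. Psmb7 (ENSMUSG00000026750, chr2:38588036-38644087), with the trypsin-like site, stood at 120.6, 129.9 and 139.3 CPM in isotype POD2 and at 77.7, 88.6 and 74.2 CPM in anti-Gr1 POD2. Again the groups were apart, with means of 132.3 ± 9.96 and 78.6 ± 6.35 CPM (log2 fold change -0.75 ± 0.15, adjusted p = 0.0103). Psmb5 (ENSMUSG00000022193, chr14:54614119-54618022), with the chymotrypsin-like site, stood at 32.5, 34.5 and 37.0 CPM against 21.9, 24.0 and 22.4 CPM, which also kept the groups apart (log2 fold change -0.63 ± 0.15, adjusted p = 0.0182). All 3 calls were lost without the cross-day pair, with adjusted p-values of 0.0606 for Psmb7, 0.0765 for Psmb5 and 0.0841 for Psmb6, and without scaling factors, though the values stayed negative.

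At POD1 these genes did not pass the test. Psmb5 stood at 31.7, 33.3 and 33.3 CPM in isotype and at 28.3, 23.3 and 22.8 CPM in anti-Gr1, with no overlap (log2 fold change -0.40 ± 0.12, adjusted p = 0.171). Psmb7 stood at 101.6, 96.6 and 103.5 CPM against 81.3, 75.4 and 87.4 CPM, also without overlap (-0.31 ± 0.12, adjusted p = 0.269). Psmb6 overlapped: it stood at 146.0, 153.9 and 153.5 CPM in isotype and at 157.7, 103.5 and 124.1 CPM in anti-Gr1, where replicate 1 was above all isotype libraries of that day (-0.24 ± 0.19, adjusted p = 0.562). Reads of Psmb7 can come from Nek6, which overlaps it on the opposite strand, since no source used here gives the strand setting of the counting.

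The immunoproteasome subunits Psmb8 and Psmb9 lay on the other side. Psmb8 (ENSMUSG00000024338, chr17:34197721-34201454), which replaces Psmb5, stood at 42.2, 44.1 and 49.7 CPM in isotype POD2 and at 60.1, 67.4 and 78.3 CPM in anti-Gr1 POD2. Every anti-Gr1 library was above every isotype library of that day. The means were 46.4 ± 4.67 and 71.0 ± 10.3 CPM (SD, n = 2 each; 1.53-fold, log2 difference 0.62 ± 0.17, adjusted p = 0.0299), and without the cross-day pair the difference was 0.35 (adjusted p = 0.337). At POD1 it stood at 57.1, 68.1 and 61.5 CPM in isotype and at 88.8, 80.1 and 78.0 CPM in anti-Gr1, with no overlap, and did not pass (0.40 ± 0.14, adjusted p = 0.207). Its POD2 call was also lost with RLE size factors, with a fit of the 2 groups alone and without anti-Gr1 POD2 replicate 2. The call was kept with DESeq2 and without scaling factors. Omitting replicate 3 of isotype POD2 or of anti-Gr1 POD2 leaves 1 sample in that group, and the call was lost there too. Psmb8 then lay above the median log2 fold change of all genes by 0.61 and 0.32. Psmb8 overlaps the antisense gene Gm20496.

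Psmb9 (ENSMUSG00000096727, chr17:34181987-34187764), which replaces Psmb6, differed most at POD1. It stood at 24.2, 28.3 and 28.0 CPM in isotype POD1 and at 39.3, 36.6 and 42.9 CPM in anti-Gr1 POD1. The groups were well apart, with means of 26.8 ± 2.3 and 39.6 ± 3.14 CPM (SD, n = 3 each; 1.47-fold, log2 difference 0.56 ± 0.12), but the adjusted p was 0.0758. It was 0.109 without the cross-day pair, 0.296 without scaling factors, and 0.0248 with all 12 libraries as separate samples, which counts near-identical libraries more than once. At POD2 the values were 25.5, 28.9 and 27.9 CPM in isotype and 29.5, 31.2 and 32.2 CPM in anti-Gr1, apart by a narrow gap (0.18 ± 0.15, adjusted p = 0.38). The transcription unit of Tap1 overlaps that of Psmb9 on the opposite strand by 212 bases in GENCODE, while the RefSeq starts given above leave a gap. Tap1 rose at POD1 from 28.2 ± 0.448 to 61.5 ± 9.82 CPM (SD, n = 3 each, log2 difference 1.13 ± 0.15, adjusted p = 0.0168). Without scaling factors it did not pass (adjusted p = 0.141).

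**Figure D1:**
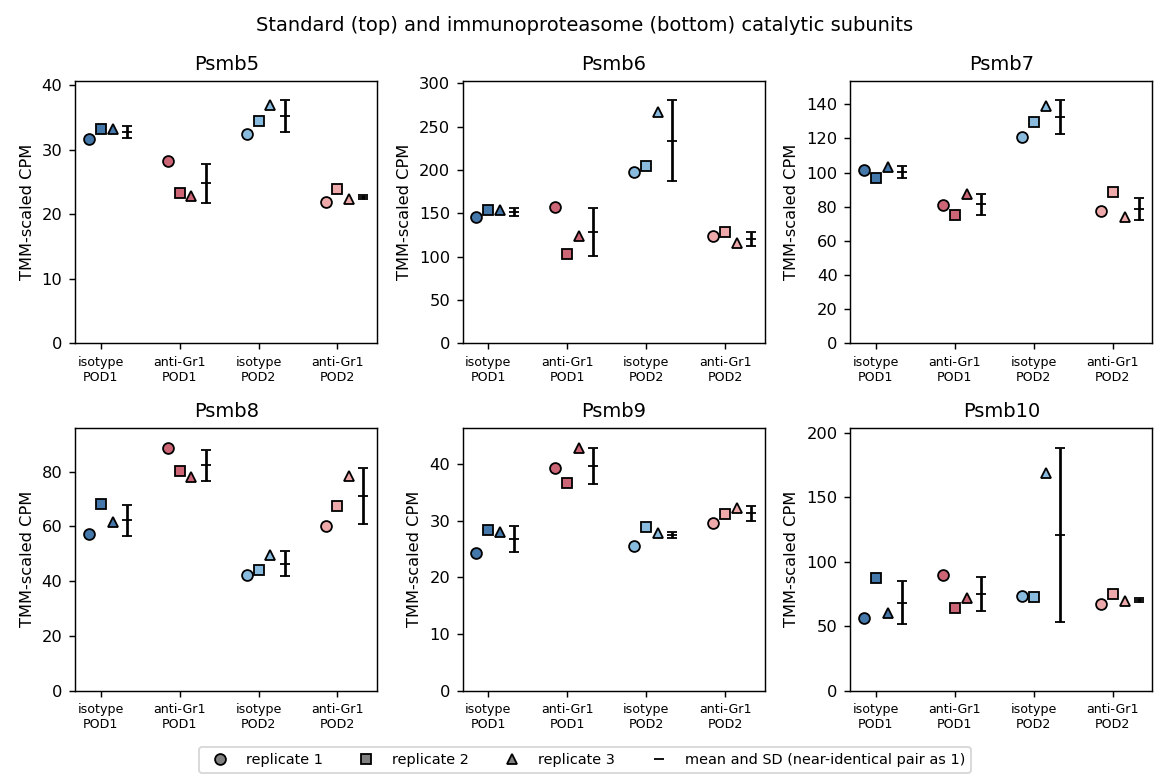
TMM-scaled CPM of the standard (top row) and immunoproteasome (bottom row) catalytic subunits in each of the 12 libraries by group, with the mean and SD drawn beside each group (near-identical pairs count as 1 sample). Psmb5, Psmb6 and Psmb7 are lower in anti-Gr1 than in isotype at POD2, Psmb8 is higher, and Psmb10 stands at 168.7 CPM in isotype POD2 replicate 3.

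Psmb10 (ENSMUSG00000031897, chr8:105935735-105938444), which replaces Psmb7, did not pass in either direction. It stood at 56.5, 87.3 and 60.4 CPM in isotype POD1, at 89.8, 64.1 and 71.5 CPM in anti-Gr1 POD1, at 73.7, 72.3 and 168.7 CPM in isotype POD2 and at 67.3, 74.9 and 69.3 CPM in anti-Gr1 POD2. All groups overlapped, and replicate 3 of isotype POD2 stood apart from the other 11 libraries. The antibody difference at POD2 was -0.78 ± 0.38 on the log2 scale (adjusted p = 0.16) and -0.06 without that library (adjusted p = 0.933). Ctrl, a chymotrypsin-like protease gene of the pancreatic acinar cell, lies on the same strand 1872 bases past the end of Psmb10 (chr8:105932003-105933862). It stood at 17300 CPM in isotype POD2 replicate 3, the highest of all libraries, and at 6472 CPM in anti-Gr1 POD1 replicate 1, which had the second highest Psmb10. Whether reads that run between these genes enter the count of Psmb10 was not tested.

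**Figure D2:**
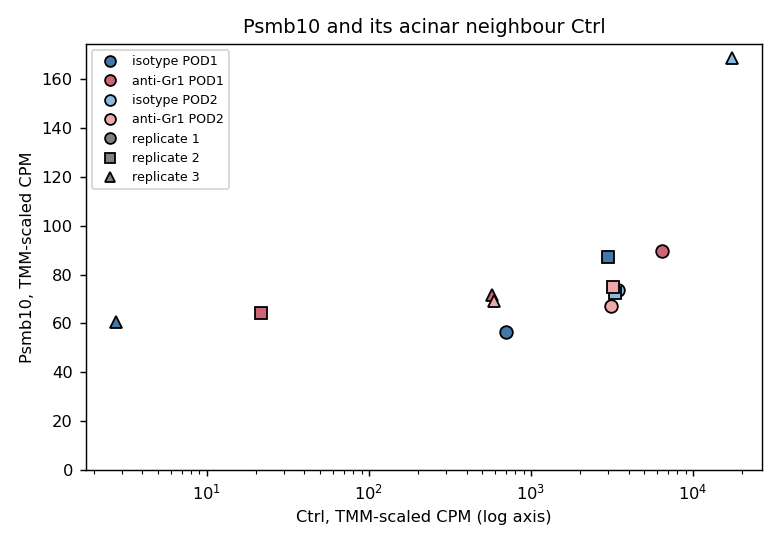
Psmb10 (vertical axis, TMM-scaled CPM) against its acinar neighbour Ctrl (horizontal axis, TMM-scaled CPM, log axis), 1 point per library with colour for the group and shape for the replicate. The library with the highest Ctrl, isotype POD2 replicate 3 at 17300 CPM, also has the highest Psmb10, 168.7 CPM.

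Ratios of reads within a library do not depend on the scaling factors, and they kept the antibodies apart on both days. The ratio of Psmb8 to Psmb5 was 1.8, 2.04 and 1.85 in isotype POD1 and 3.14, 3.44 and 3.42 in anti-Gr1 POD1. At POD2 it was 1.3, 1.28 and 1.35 in isotype and 2.75, 2.81 and 3.49 in anti-Gr1. The lowest anti-Gr1 library was thus above the highest isotype library of either day, and the replicates other than the cross-day pair show this too. The ratio of Psmb9 to Psmb6 was 0.166, 0.184 and 0.183 in isotype POD1 against 0.249, 0.354 and 0.345 in anti-Gr1 POD1. At POD2 it was 0.129, 0.141 and 0.105 against 0.238, 0.242 and 0.279, and again no library of one antibody reached into the range of the other. The ratio of Psmb10 to Psmb7 overlapped: it ran from 0.556 to 0.904 in isotype POD1, from 0.818 to 1.1 in anti-Gr1 POD1, from 0.556 to 1.21 in isotype POD2 and from 0.845 to 0.934 in anti-Gr1 POD2. These ratios were not tested. The granulocyte marker sums separate the antibodies in every library too. In replicate order, the anti-Gr1 sums were 9264, 9695 and 5543 CPM at POD1 and 3484, 3963 and 5055 CPM at POD2. How these sums relate to the ratios was not tested.

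**Figure D3:**
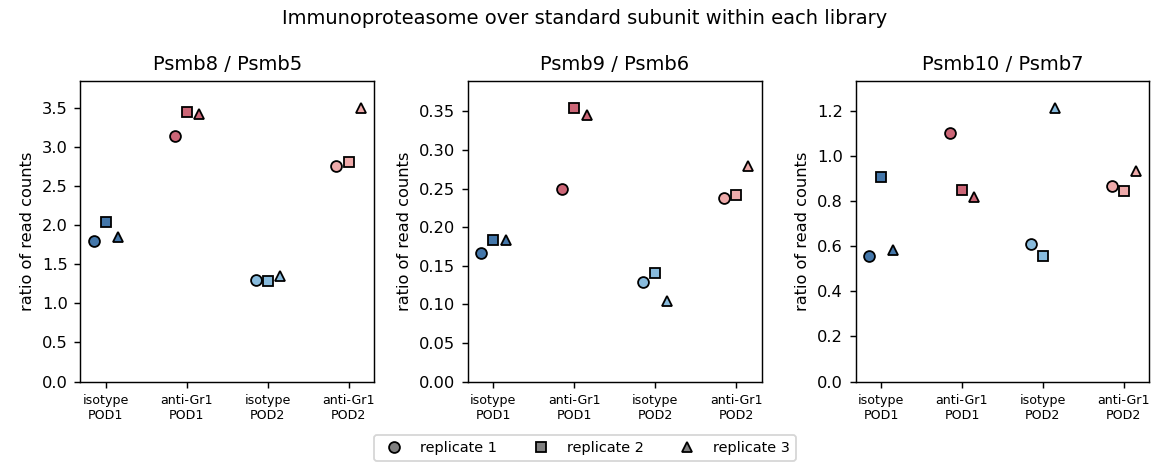
Ratio of read counts of each immunoproteasome subunit to the standard subunit it replaces, 1 point per library, by group. For Psmb8 over Psmb5 the isotype libraries lie at 1.28 to 2.04 and the anti-Gr1 libraries at 2.75 to 3.49, while the ranges of Psmb10 over Psmb7 overlap.

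As a share of the summed level per kb of all 6 catalytic genes, the immunoproteasome subunits made up 28.4%, 34.9% and 29.1% in isotype POD1 and 39.1%, 40.9% and 39.5% in anti-Gr1 POD1. In isotype POD2 the share was 26.1%, 25.5% and 35.1%, and in anti-Gr1 POD2 36.6%, 37.3% and 40.2%. Every anti-Gr1 library was above every isotype library, by the narrowest margin against isotype POD2 replicate 3, the library with the high Psmb10. Without Psmb10 and Psmb7 the group means were 18.0% ± 0.896 in isotype POD1, 27.0% ± 2.59 in anti-Gr1 POD1 (SD, n = 3 each), 11.5% ± 0.977 in isotype POD2 and 24.8% ± 3.1 in anti-Gr1 POD2 (n = 2 each).

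In the comparison of antibodies at POD2, of the 49 members, 14 fell, 1 rose (Psmb8) and 34 did not pass; over all 15647 genes tested, 9.22% fell and 16.1% rose. The median log2 fold change was -0.51 for the members and 0.10 for all genes, and 45 of 49 members had a negative value (29 of 49 without scaling factors). The calls depend on few libraries. Leaving out anti-Gr1 POD2 replicate 2 gave 27 called members (55.1%), beside 25.8% of all genes. Fewer calls were left, among the members and over all genes, without isotype POD2 replicate 3, anti-Gr1 POD2 replicate 3 or the cross-day pair. In these fits the near-identical pair is the lone sample of its group and assumed to vary like the others. The members' medians there were -0.39, -0.44 and -0.56, beside 0.11, 0.15 and 0.03 for all genes. Without scaling factors the median of all genes moved to 0.51 and that of the members to -0.07. The members then lay below all genes by 0.58 in place of 0.61. Only Psmb8 and Psmc3ip were called in that setting, beside 23.2% of all genes.

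By role, the calls at POD2 were spread over core, cap and assembly factors. Of the alpha ring subunits 0 of 8 passed by edgeR (2 at an unadjusted p under 0.05; DESeq2 called Psma3 and Psma4 lower), with a median of -0.26 (0.16 without scaling factors). Of the structural beta subunits 1 of 4 fell, and all 4 were negative: Psmb4 went from 202.3, 201.6 and 237.1 CPM in isotype to 124.5, 140.8 and 127.6 CPM in anti-Gr1. Its groups did not overlap (log2 fold change -0.75 ± 0.19, adjusted p = 0.023). DESeq2 also called Psmb1, Psmb2 and Psmb3 lower.

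Among the 6 ATPases that unfold substrates, 3 fell, Psmc3, Psmc4 and Psmc5, and all 6 were negative (5 without scaling factors, with 0 called). Psmc4 stood at 175.4, 178.0 and 205.9 CPM in isotype and at 92.7, 99.3 and 100.0 CPM in anti-Gr1, with the groups far apart (log2 fold change -0.96 ± 0.21, adjusted p = 0.0125). Psmc5 went by -0.67 ± 0.20 (adjusted p = 0.0362) and Psmc3, whose gene overlaps Slc39a13 on the opposite strand, by -0.66 ± 0.20 (adjusted p = 0.0403). The other ATPases, Psmc1, Psmc2 and Psmc6, ranged from -0.46 to -0.30.

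Of the 11 other cap subunits 3 fell, and all 11 were negative with a median of -0.51. Without scaling factors 0 of these were called, 7 of 11 were negative and the median was -0.06. Psmd13, a lid subunit, stood at 127.7, 127.7 and 139.9 CPM in isotype and at 78.6, 84.3 and 71.5 CPM in anti-Gr1, with no overlap (log2 fold change -0.80 ± 0.17, adjusted p = 0.0117). Psmd1, a scaffold subunit of the base, stood at 148.6, 150.2 and 158.3 CPM against 107.3, 106.5 and 108.0 CPM, with little spread in either group (-0.52 ± 0.15, adjusted p = 0.035). The gene of Psmd1 overlaps Gm21972 on the same strand and Htr2b on the opposite strand. Psmd14, the deubiquitinase that removes ubiquitin chains from substrates, differed by -0.48 ± 0.14 (adjusted p = 0.0376). The ubiquitin receptor Psmd4 (-0.60 ± 0.26, adjusted p = 0.119) and the scaffold Psmd2 (-0.34 ± 0.16, adjusted p = 0.14) did not pass by edgeR. DESeq2 also called Psmd2, Psmd3, Psmd7, Psmd8 and Psmd11 lower.

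The assembly chaperones of the core held some of the largest differences. Psmg1, which with Psmg2 forms the dimer that guides alpha ring assembly, stood at 28.9, 28.6 and 35.2 CPM in isotype POD2 and at 14, 19.1 and 15.0 CPM in anti-Gr1 POD2. The groups were apart (2.01-fold lower, log2 fold change -1.01 ± 0.18, adjusted p = 0.00663). Psmg2 stood at 29.8, 30.0 and 27.1 CPM against 14.2, 15.3 and 15.1 CPM, with tight replicates (-0.93 ± 0.24, adjusted p = 0.0243). Psmg3 (-0.50) and Psmg4 (-0.71) did not pass. Of the 3 cap chaperones Psmd5, Psmd9 and Psmd10, 0 passed (1, Psmd9, at an unadjusted p under 0.05, which DESeq2 called), with values from -0.58 to -0.06. The gene of Psmd9 overlaps Hpd on the opposite strand by 10921 bases.

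Of the activators and the inhibitor, only Psmf1 fell. Psmf1, a protein that inhibits the core in vitro, stood at 52.8, 51.8 and 59.0 CPM in isotype POD2 and at 33.3, 31.7 and 31.1 CPM in anti-Gr1 POD2, without overlap (-0.81 ± 0.15, adjusted p = 0.00751). The PA28 subunits Psme1 and Psme2, which interferon gamma induces along with the immunoproteasome, did not pass: Psme1 went from 123.3 ± 10.4 to 105.0 ± 5.96 CPM (-0.23 ± 0.15, adjusted p = 0.305) and Psme2 from 48.8 ± 2.04 to 40.2 ± 4.66 CPM (SD, n = 2 each; -0.28 ± 0.15, adjusted p = 0.195). Reads of Psme2 and its close paralog Psme2b may be shared. The nuclear activators Psme3 (-0.09) and Psme4 (-0.33) did not pass. Psmc3ip, which is no subunit, had the largest change of all members, from 6.44, 7.32 and 7.75 CPM to 1.94, 2.73 and 2.04 CPM (-1.72 ± 0.28, adjusted p = 0.00471), with no overlap.

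**Figure D4:**
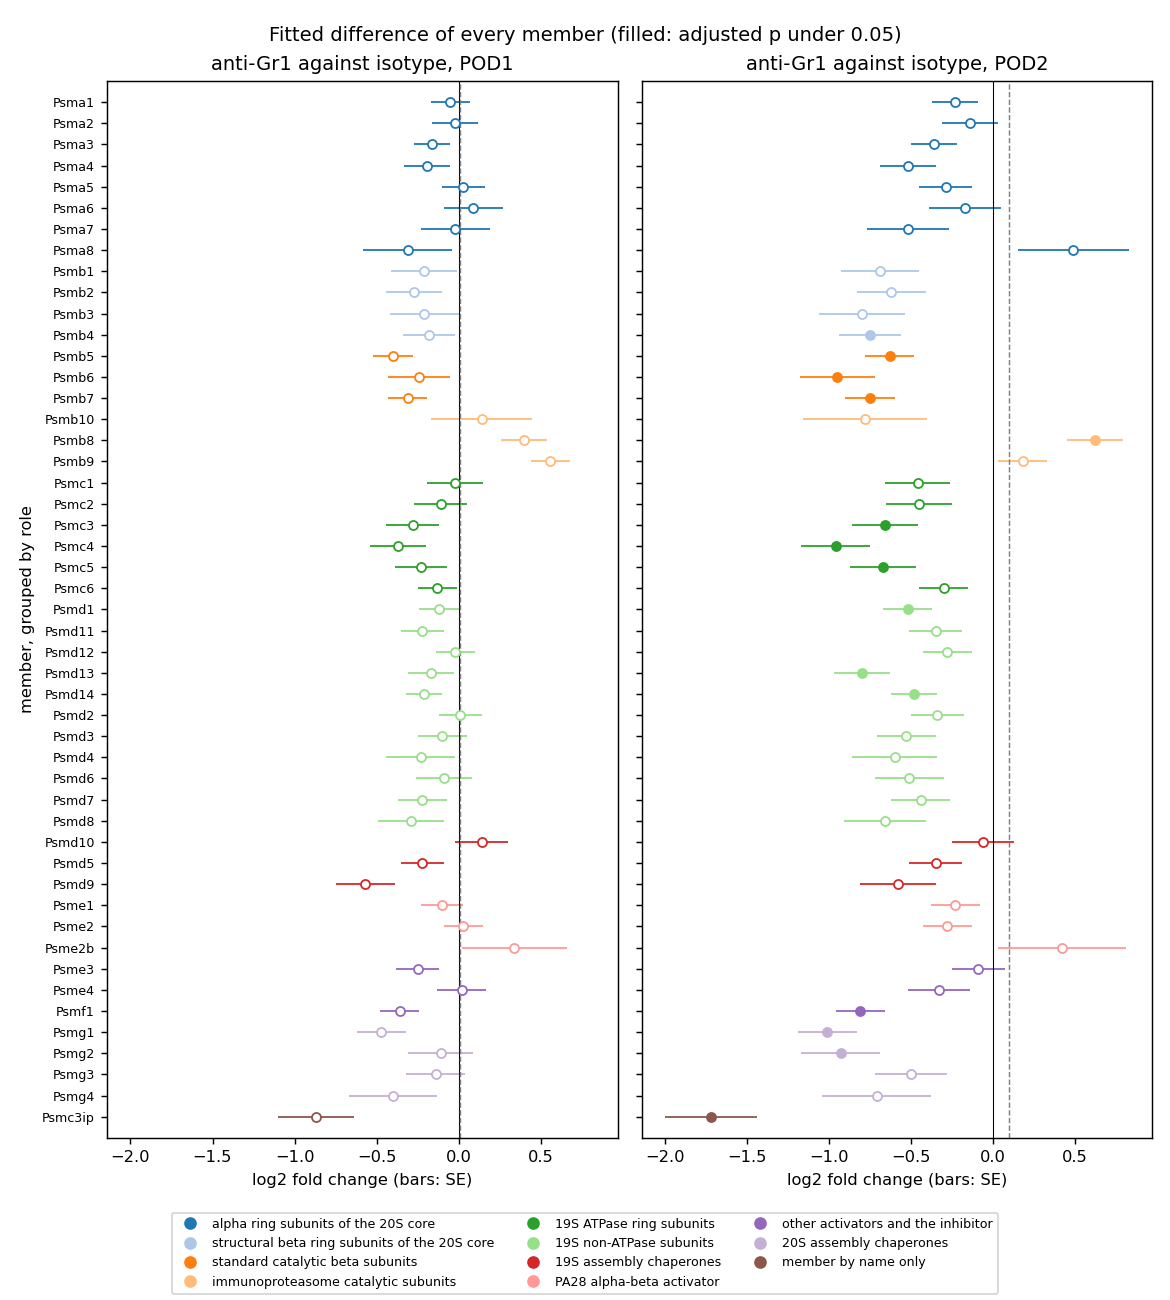
Log2 fold change of anti-Gr1 against isotype with its SE for all 49 members, coloured and ordered by role, at POD1 (left) and POD2 (right); filled points have an adjusted p under 0.05 and the dashed line is the median of all genes tested. At POD2 45 of 49 members lie below 0 (29 without scaling factors) and 15 points are filled, and at POD1 no point is filled.

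**Figure D5:**
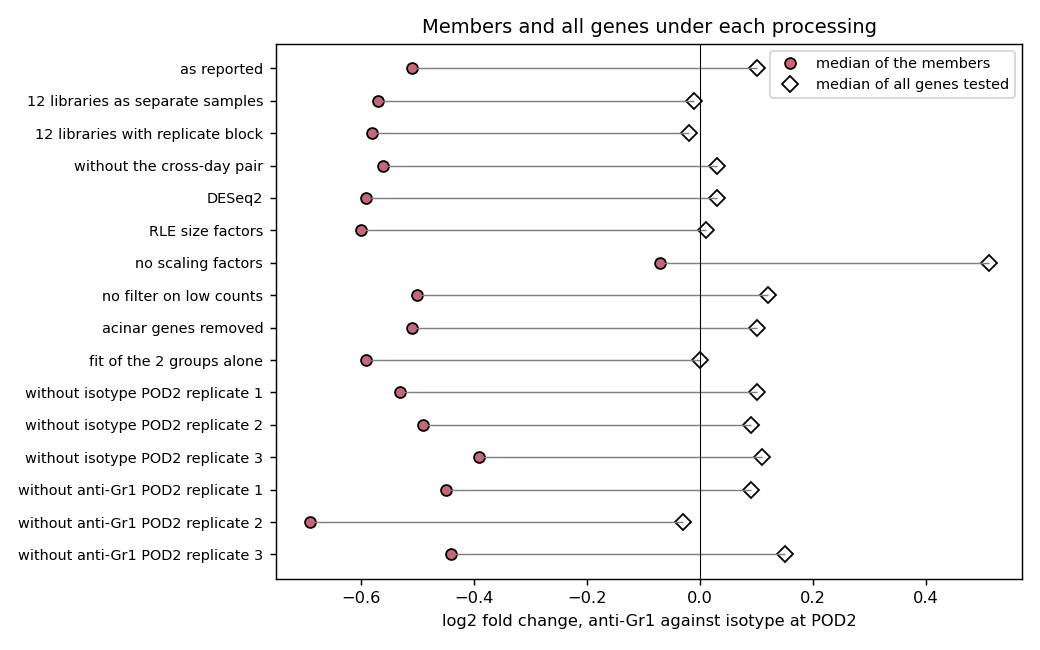
Median log2 fold change of the 49 members (circles) and of all genes tested (diamonds) for anti-Gr1 against isotype at POD2, under each processing. The members lie below all genes by 0.61 as reported and by 0.50 to 0.66 under the alternatives, while the position of both on the axis shifts when no scaling factors are used.

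At POD1, by edgeR 0 of 49 passed in either direction, while over all genes 0.607% were called higher and 0.128% lower. An unadjusted p under 0.05 was found for 8 of 49 members and for 2565 of 15647 genes. DESeq2 called 1 member, Psmb9, beside 4.12% of all genes. The members' median was -0.17 against 0.01 for all genes, and 39 of 49 were negative. After Psmb9, the smallest p belonged to Psmc3ip, which stood at 2.84, 3.22 and 3.13 CPM in isotype and at 1.95, 1.31 and 1.77 CPM in anti-Gr1 (-0.87 ± 0.23, adjusted p = 0.128), and then to Psmb5. Psmb10 (0.14 ± 0.31), Psme1 (-0.10 ± 0.13) and Psme2 (0.03 ± 0.12) lay near 0, with overlapping groups.

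Whether the antibody difference itself changed between the days was tested with an interaction term. By edgeR 0 of 49 members passed, while over all genes 3.51% were called higher and 2.1% lower. An unadjusted p under 0.05 was found for 7 of 49 members and for 3858 of 15647 genes. DESeq2 called 2 members, Psmb7 and Psmd13, both more negative at POD2, beside 10.3% of all genes. The members with the smallest p were Psmd13 (-0.64 ± 0.22, adjusted p = 0.117), Psmg2 (-0.82 ± 0.31, adjusted p = 0.148) and Psmb6 (-0.72 ± 0.30, adjusted p = 0.181). The difference for Psmb8 was 0.21 ± 0.22 (adjusted p = 0.58), for Psmb9 -0.38 ± 0.19 (0.253 adjusted), for Psmb5 -0.23 ± 0.19 (0.502 adjusted) and for Psmb7 -0.44 ± 0.20 (0.207 adjusted). With 1 library left out at a time, 0 or 1 members passed. The larger count of calls at POD2 is therefore not shown to be a difference between the days.

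Between the days within isotype, 7 members rose, 1 fell and 41 did not pass, while over all genes 12.6% rose and 19.7% fell. Without scaling factors 0 members rose and 19 of 49 (38.8%) fell, beside 584 and 6551 of all 15647 genes. The members' median was 0.15 against -0.06 for all genes. Psmg1 rose from 20.1, 21.1 and 18.7 CPM at POD1 to 28.9, 28.6 and 35.2 CPM at POD2 (0.68 ± 0.16, adjusted p = 0.0147), and Psmg2 from 15.2, 17.1 and 18.2 CPM to 29.8, 30.0 and 27.1 CPM (0.76 ± 0.22, adjusted p = 0.028). The days did not overlap for either chaperone. Psmb6 rose by 0.63 ± 0.21 (adjusted p = 0.0474), Psmd13 by 0.52 ± 0.15 (adjusted p = 0.0315), Psmd1 by 0.45 ± 0.13 (adjusted p = 0.034), Psmf1 by 0.45 ± 0.14 (adjusted p = 0.035) and Psmc3ip by 1.25 ± 0.24 (adjusted p = 0.0063). The member that fell was Psma8, at 2.45, 2.38 and 1.96 CPM at POD1 and 0.957, 1.7 and 0.954 CPM at POD2 (-0.95 ± 0.31, adjusted p = 0.0477).

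The remaining catalytic genes did not pass between the days of isotype. Psmb7 differed by 0.40 ± 0.14 (adjusted p = 0.0556), Psmb5 by 0.10 ± 0.14 and Psmb9 by 0.04 ± 0.13, Psmb8 by -0.42 ± 0.16 (adjusted p = 0.0666), and Psmb10, with its high library, by 0.83 ± 0.34 (adjusted p = 0.0888). Psme1 (0.02 ± 0.14) and Psme2 (0.34 ± 0.13, adjusted p = 0.0801) did not pass. These calls too rest on single libraries: of the 8, 2, 2 and 4 were left without isotype POD1 replicates 1, 2 and 3. Over all genes 22.5%, 21.5% and 22.9% were then called, in place of 32.3%. Omitting isotype POD2 replicate 3 leaves 1 sample in that group, and fewer calls were left among the members and over all genes. The members' median was then 0.05, beside -0.08 for all genes. Without scaling factors the median of all genes was -0.73. The comparison shares the isotype POD2 libraries with the antibody comparison of that day, so members that were high in these libraries enter both. The summed hepatocyte markers were 107000 to 112200 CPM at POD2 against 7944 to 13560 CPM at POD1 in the same groups, and their part in these calls was not tested.

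Within anti-Gr1 edgeR called 0 of 49 members and 0% of all genes in each direction (percent called 0 and 0), with 3 members and 769 genes at an unadjusted p under 0.05, and DESeq2 called 0 members. The smallest p belonged to Psmb9 (-0.34 ± 0.13), Psma6 (-0.49 ± 0.20) and Psma2 (-0.36 ± 0.16), each with an adjusted p of 0.72. Psmb8 differed by -0.21 ± 0.15, Psmb5 by -0.13 ± 0.14, Psmb6 by -0.09 ± 0.21, Psmb7 by -0.05 ± 0.14, Psmb10 by -0.09 ± 0.34, Psme1 by -0.11 ± 0.14 and Psme2 by 0.03 ± 0.13. These counts come from groups that share the cross-day pair, with 1 library of it on each day. Without the pair 545 genes passed and 0 members; without anti-Gr1 POD1 replicate 3 alone, 1149 genes (7.37%) passed and 1 member, Psma6, which was lower at POD2.

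Genes that work with the proteasome but fall outside the name rule were read from lists. Of 7 further cofactors, 3 fell at POD2, beside 9.22% of all genes, and 0 rose: Uchl5, a deubiquitinase of the cap, went from 50.3 ± 10.1 to 25.0 ± 3.62 CPM (SD, n = 2 each; -1.0 ± 0.30, adjusted p = 0.04), its anchor Adrm1, a ubiquitin receptor, from 29.8 ± 5.23 to 18.4 ± 0.157 CPM (-0.69 ± 0.21, adjusted p = 0.0398), and Pomp, the maturation factor of the core, from 152.3 ± 6.75 to 105.6 ± 8.28 CPM (-0.53 ± 0.16, adjusted p = 0.0421). All 7 were negative, but 4 were positive without scaling factors, where the median was 0.18 in place of -0.24. The 3 calls were lost without scaling factors and without the cross-day pair (then adjusted p = 0.119 for Uchl5, 0.101 for Adrm1 and 0.0758 for Pomp). In the list of ubiquitin shuttles and Vcp cofactors, the segregase Vcp fell (-0.61 ± 0.18, adjusted p = 0.0355) and the shuttle Ubqln2 rose (0.62 ± 0.18, adjusted p = 0.0367); neither passed without the cross-day pair (adjusted p = 0.126 and 0.177), and Vcp did not without scaling factors (0.56 adjusted).

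Of 12 regulators of proteasome genes, 3 rose at POD2 and 1 fell, beside 16.1% and 9.22% of all genes, so that these counts of few genes lie near the share over all genes. Those that rose were the small Maf genes Mafk (0.85 ± 0.23, adjusted p = 0.028) and Mafg (0.60 ± 0.18, adjusted p = 0.0375), partners of the factors that bind antioxidant response elements, and Bach1 (1.24 ± 0.38, adjusted p = 0.0428), a repressor at the same sites. Keap1, the adapter through which Nfe2l2 is degraded, fell from 61.6 ± 1.26 to 44.6 ± 0.321 CPM (-0.47 ± 0.13, adjusted p = 0.0303). None of the 4 calls was left without the cross-day pair (adjusted p from 0.0729 for Mafk to 0.217 for Mafg), and without scaling factors Keap1 lay at -0.05. At POD1 no gene of these lists passed by edgeR, and 1, Faf2, had an unadjusted p under 0.05.

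Of 11 genes of class I peptide processing, 2 rose at POD2 (18.2%, close to the 16.1% of all genes that rose) and 0 fell. Those that rose were Tap1 (0.74 ± 0.18, adjusted p = 0.0207) and Nlrc5, the activator of class I genes. Nlrc5 went from 7.76 ± 0.174 to 13.2 ± 0.842 CPM (0.76 ± 0.19, adjusted p = 0.0196). At POD1 Tap1 alone passed, though not without scaling factors (adjusted p = 0.141). Neither POD2 call was left without the cross-day pair (adjusted p = 0.217 for Tap1 and 0.197 for Nlrc5). Of 12 genes of interferon gamma signalling 7 rose at POD2, beside 16.1% of all genes, and 0 fell, among them Irf8, a factor of myeloid cells (2.19 ± 0.34, adjusted p = 0.00418), the GTPase Gbp2 (1.61 ± 0.28, adjusted p = 0.00586), Ciita, the activator of class II genes (2.45 ± 0.54, adjusted p = 0.0133), and the kinase Jak1 (1.40 ± 0.31, adjusted p = 0.0145). Their median was 1.34, beside 0.10 for all genes. Without the cross-day pair 2 of the 7 calls were left, Irf8 and Gbp2, while Ciita (adjusted p = 0.0765) and Jak1 (adjusted p = 0.0959) lost theirs, and the median was 1.04. The cytokine gene Ifng itself was low on both days. At POD2 it stood at 0, 0.0851 and 0.119 CPM in isotype and at 0.545, 0.409 and 0.291 CPM in anti-Gr1, higher in anti-Gr1 without overlap but not past the test (adjusted p = 0.123). At POD1 it stood at 1.39, 1.61 and 1.53 CPM in isotype and at 0.144, 1.1 and 0.394 CPM in anti-Gr1, the other direction, and did not pass either (adjusted p = 0.288). Some of these genes are also expressed by granulocytes and macrophages, whose markers rose in the same libraries at POD2 (13 of 13 and 11 of 12).

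RefSeq promoters were found for 41 of the 49 members, in 44 windows. Both strands were searched for 4 motifs and compared with all 32851 windows. The interferon stimulated response element core was in 3 members, Psmb3, Psmd4 and Psmd9, which is 7.32% of those matched, and in 2.98% of all windows. None of the immunoproteasome genes held it within its window. For Psmb8 and Psmb9, whose windows lie inside the GENCODE genes, the bases before the GENCODE starts were not searched. The STAT site TTCNNNGAA was in Psmb8 and Psmg1, 4.88%, and in 7.02% of windows. The antioxidant core TGACNNNGC was in 5 members, Psmb5, Psmb6, Psmc6, Psmd12 and Psmd9 (12.2%), and in 10.2% of windows, and CCAAT was in 14 members (34.1%) and in 33.8% of windows. A match is a description of these letters in a short window and not a bound site.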

How the data were processed

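Raw read counts of genes, as the authors deposited them, fill 1 table with a column for each of the 12 libraries; 0 columns were left unmapped. Per the submitters' processing notes, the tools were cutadapt, STAR, HTSeq and DESeq2 and the build GRCm38; versions, annotation and strand setting were not given. Counts were fitted with edgeR 4.0.16 in R 4.3.3 (filterByExpr, TMM scaling, robust quasi-likelihood test, 1 mean per group) over 10 samples, in which near-identical libraries of a group were summed; 15647 genes were tested in 5 comparisons, with Benjamini-Hochberg adjustment over all of them and a threshold of 0.05. CPM values use the scaling factors of this fit. SE is the log2 fold change over the square root of F. Library totals of 13189392 to 15822043 counts set the precision of low genes such as Psma8.

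Coordinates and exon lengths come from GENCODE M21 (GRCm38), and promoters from RefSeq. Members with values are the called ones, at most 12 by p, at least 3 by p where fewer passed, and always Psmb5 to Psmb10, Psme1 and Psme2; of each other list at most 4 genes by p are named, and members beyond these are named to complete a role. DESeq2 1.42.0, other scalings and filters, a replicate block and omitted libraries were alternatives. Members and lists were chosen with earlier results of these data known. Psmb11 is named only. A result in the list of ubiquitin shuttles is not reported here.

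Replicate numbers are not stated to mark shared animals or days, and correlations of same-numbered deviations ran from -0.29 to 0.358, with 6 of 18 pairs over 0.1, so samples were not paired.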

Additional observations from a re-analysis of the deposited data

How the results depend on the processing

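Counts of called members at POD2 moved most, and the share called over all genes moved as well. That share was 25.3% as reported, 41.9% with the 12 libraries as separate samples and 39.1% with the replicate block. It was 24.8% with DESeq2, 38.2% with a fit of the 2 groups alone and 23.2% without scaling factors. Against 15 as reported, 40 passed with the 12 libraries as separate samples, 26 with DESeq2, 23 with a fit of the 2 groups alone and 2 without scaling factors. Omitting 1 library while keeping 2 samples in each POD2 group gave 13 to 27, beside 23.5% to 25.8% of all genes. Where 1 sample was left in a group, as without the cross-day pair, fewer calls were left among the members and over all genes. At POD1 1 passed with separate libraries and with DESeq2 in place of 0, beside 3.43% and 4.12% of all genes. For the difference between days, 4 passed with separate libraries and 2 with DESeq2, beside 16.6% and 10.3% of all genes. With 1 library left out and at least 2 samples kept in each group, 0 to 1 passed, beside 0.955% to 14.5% of all genes. Between the days of isotype, 16 passed with separate libraries and 19 without scaling factors. With 1 library left out and at least 2 samples kept in each group, 2 to 8 passed, beside 21.5% to 31.9% of all genes. In anti-Gr1 it was 0 to 1, beside 0% to 7.37% of all genes. With the replicate block, which the numbers do not justify, 35 members passed at POD2, 1 at POD1 and 2 for the difference between days. Between the days of isotype, the share called over all genes was 32.3% as reported, 46.4% with separate libraries and 45.6% without scaling factors. The cause of these shifts was not tested, and where a library is omitted there are fewer samples.

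The immunoproteasome share, in the order isotype POD1, anti-Gr1 POD1, isotype POD2 and anti-Gr1 POD2, was 18.0%, 27.0%, 11.5% and 24.8% without Psmb10 and Psmb7, a choice made after seeing the data. Without division by length it was 35.5% and 45.7% at POD1 and 43.7% in anti-Gr1 POD2, and 37.8% in anti-Gr1 POD1 per kb of the longest transcript.

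Of the 40 values of named members that changed sign (log2 scale), 20 did so without scaling factors. At POD1 these were Psmb10 (-0.01) and Psme2 (-0.12), and at POD2 Psme1 (0.21) and Psme2 (0.16). For the difference between days they were Psmb5 (0.36), Psmb7 (0.15), Psmb9 (0.20), Psme1 (0.47) and Psme2 (0.28). Between the days of isotype they were Psmg1 (-0.03), Psmd13 (-0.17), Psmd1 (-0.24), Psmf1 (-0.25), Psmb6 (-0.09), Psmb5 (-0.59), Psmb7 (-0.30), Psmb9 (-0.64), Psme1 (-0.68) and Psme2 (-0.35). Without the cross-day pair, Psme2 at POD1 (-0.03), Psmb8 in the difference between days (-0.10) and Psmb7 between the days of anti-Gr1 (0.05) changed sign. Psme2 between the days of anti-Gr1 lay at 0.03 and took values of -0.04 with separate libraries and with the replicate block, -0.06 without the cross-day pair, -0.02 with DESeq2 and with other size factors, and -0.07 without scaling. With 1 library omitted, ranges that crossed 0 were -0.01 to 0.36 for Psmb10 and -0.04 to 0.05 for Psme2 at POD1, -0.01 to 0.15 for Psmb9 and -0.07 to 0.14 for Psme1 between the days of isotype, and -0.24 to 0.09 for Psmb6, -0.14 to 0.04 for Psmb7, -0.21 to 0.05 for Psmb10 and -0.09 to 0.10 for Psme2 between those of anti-Gr1. Of 950 values under alternatives, 804 kept direction and side of the threshold, 81 lost the call and 25 gained it. Low counts limit Psma8, Psme2b and Psmc3ip.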
